A study of Mus musculus with 6 samples.

Results

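The cytosolic ribosomal proteins were examined in the whole small intestine of mice with and without Cftr, the chloride and bicarbonate channel whose loss causes cystic fibrosis. Members were all probe sets whose single gene symbol is that of a cytosolic ribosomal protein (Rpl, Rps or Rplp followed by a number, or Rpsa), without the ribosomal S6 kinases and the pseudogenes. This gave 49 of the 12422 probe sets of the array that are not controls, standing for 35 genes, 18 named for the small subunit and 17 for the large one. A further 39 probe sets carried a ribosomal protein symbol together with other symbols and were not members.

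There were 3 Cftr control mice (+/+) and 3 Cftr null mice (-/-). All 6 were 40 days old, congenic on the black6 background and fed the liquid diet Peptamen from day 10, which the controls therefore shared. Each group held 2 males and 1 female, the females being control replicate 3 and null replicate 2. One mouse was hybridized per 1-colour Affymetrix array, and the values are scaled intensities in arbitrary units. The labels do not say how the null allele was made, and the tissue was taken whole, so epithelium, muscle and blood-derived cells were mixed.

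The ribosome is built from a small subunit, which reads the messenger RNA, and a large subunit, which joins the amino acids. Apart from the acidic stalk proteins, each ribosome holds its proteins in equal number, and cells make them in matched amounts. Their messengers are among the most abundant of growing cells such as those of the intestinal crypt. Most begin with a C followed by an unbroken tract of pyrimidines (C and T in the gene), the 5′ terminal oligopyrimidine tract. Through it the mTOR pathway controls their translation.

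Windows at the annotated start are shown here for 5 members, picked because they hold a run of such letters. The windows run from 10 bases before the annotated start to 20 bases from it on the sense strand, from RefSeq on GRCm38.p6, with the longest run of C and T in capitals.

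Rpl7a: CTCTTCTTTCTTTCTCCagcagccgagcaa

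Rpl13a: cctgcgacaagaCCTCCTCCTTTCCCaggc

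Rps10: gcgcacgCCCCTTCCTTTCCagcctccgcc

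Rps18: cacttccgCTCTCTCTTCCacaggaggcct

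Rps27: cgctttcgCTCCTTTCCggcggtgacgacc

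These windows lie at chr2:26910797-26910826 (plus strand, Rpl7a), chr7:45128726-45128755 (minus strand, Rpl13a), chr17:27635225-27635254 (minus strand, Rps10), chr17:33955646-33955675 (minus strand, Rps18) and chr3:90213629-90213658 (minus strand, Rps27). Rpl13a and Rps27 are included because they had the largest and the smallest fitted change among genes, each represented by its brightest tested probe set. The other 3 are bright members with long runs. Of 35 member genes, 28 had a promoter in the RefSeq table. A run of at least 8 letters that are each C or T, on the sense strand, was found in the window of 10 of the 28 genes. It was counted anywhere in the window, so it need not be a tract at the start of the messenger. That of Rpl19, for example, lay wholly before the annotated start. Counted by annotated start, it was in 10 of 37 member windows (27.0%) and in 11.2% of all 32851. The same run on the opposite strand was in 2 of the 37 and in 13.3% of all. Windows without a run include those of Rplp0 and Rpl41, whose annotated starts may lie away from the main start:

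Rplp0: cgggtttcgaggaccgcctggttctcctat

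Rpl41: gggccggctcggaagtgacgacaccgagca

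They are at chr5:115559457-115559486 (plus strand) and chr10:128549149-128549178 (minus strand). Among tested genes with a promoter, the median log2 change was 0.15 in the 7 with a run and 0.13 in the 15 without, and the ranges overlapped (-0.17 to 0.58 and -0.14 to 0.37).

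In brief, none of the ribosomal protein messengers measured here passed the test between null and control mice. Of 31 member probe sets bright enough to be tested, 0 were called higher and 0 lower (limma, adjusted p under 0.05 over 7601 probe sets). Over all 7601, 1.13% were called higher and 1.87% lower in null mice. At an unadjusted p under 0.05 there were 2 members (6.45%), against 17.3% of all probe sets, so the members held no more small p-values than the array as a whole. Their changes were also small. The median size of the log2 change, whatever its sign, was 0.16 in members and 0.19 over all probe sets tested. In bulk tissue, fewer cells of a type and less RNA per cell cannot be told apart, here or in any value that follows.

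What the members did show was a common lean. The log2 change (null minus control, on the log2(intensity + 12) scale) was above 0 in 27 of 31 member probe sets, and in 54.3% of all probe sets tested. Over the 26 genes, each represented by its brightest tested probe set, the median was 0.15, beside 0.03 over all probe sets. It was 0.14 for the 14 small subunit genes and 0.18 for the 12 large subunit genes. With control replicate 2 left out, the median of the 26 genes was 0.05, and the small and large subunit medians were both 0.05. In that fit 21 of 31 member probe sets lay above 0, beside 53.9% of all probe sets tested, whose median was 0.03. The mean level of the 26 genes differed by 0.16 with all mice and by 0.07 without control replicate 2. Much of the lean therefore rested on that mouse.

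**Figure D1:**
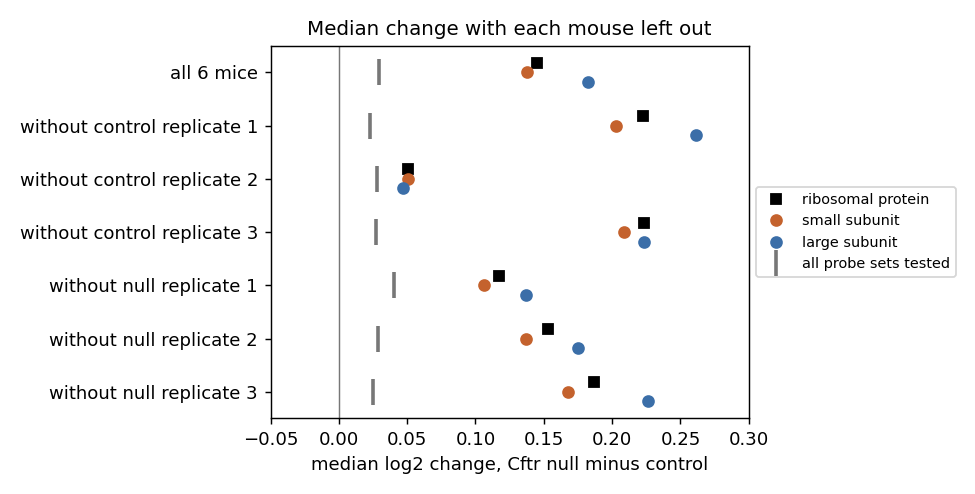
Median log2 change (Cftr null minus control) over 26 ribosomal protein genes (black), the 14 small subunit genes (orange) and the 12 large subunit genes (blue), with all 6 mice and with each mouse left out in turn; the grey bars are the medians of all probe sets tested. The gene median is 0.15 with all mice, 0.05 without control replicate 2 and between 0.12 and 0.22 without any other mouse.

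The mice were therefore compared singly, and values of a group are given in the order of its replicate numbers, which only name the mice and pair none. Summed over the 49 probe sets, ribosomal proteins took 2.67%, 2.18% and 2.68% of the summed intensity in the controls, and 2.84%, 2.77% and 2.67% in the nulls. The group means were 2.51% ± 0.283 (SD, n = 3) and 2.76% ± 0.0877 (SD, n = 3). One control mouse was low, while the other 2 lay beside the lowest null mouse, so the groups overlapped. In control replicate 2 the value was the lowest of the 6 mice in all 23 member probe sets with a mean above 1000, Rplp0, Rps18, Rpl8 and Rpsa among them. It was also the lowest in 33.2% of the 1950 probe sets of that brightness on the whole array and in 55.7% of the 237 with a mean above 6000, 18 of which were members. Other bright transcripts thus lay low in this mouse too. Its median deviation from the mean of the 6 mice was -0.18 (log2) over the 237, and -0.36 over the member genes above 1000.

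**Figure D2:**
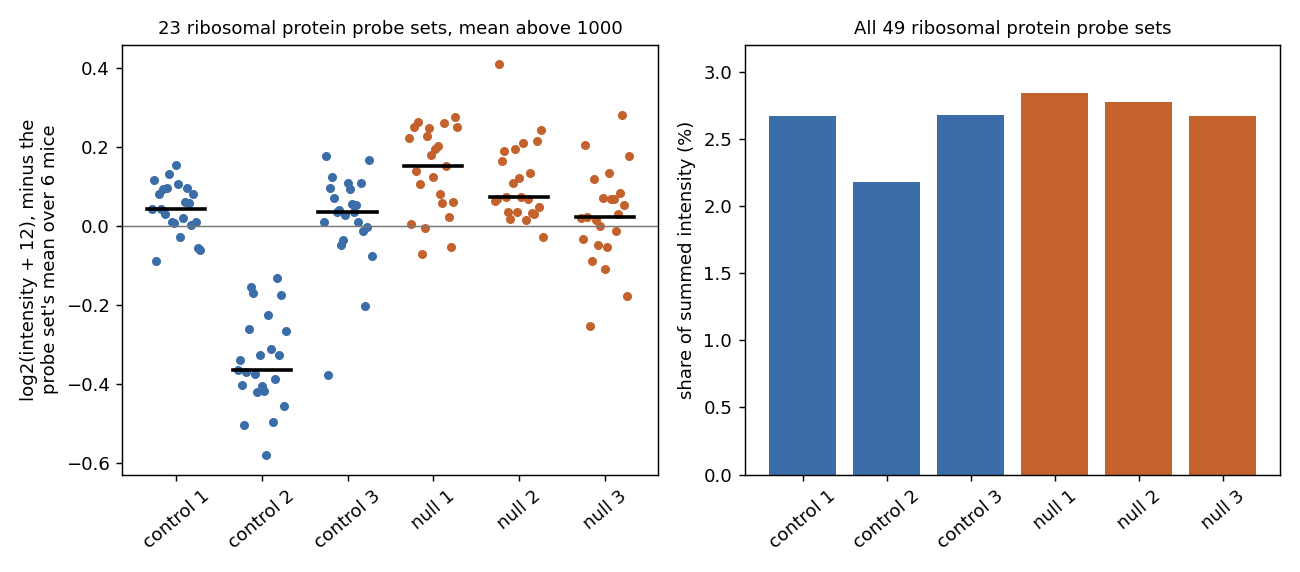
Left, each of 23 ribosomal protein probe sets with a mean above 1000 as its log2(intensity + 12) minus its own mean over the 6 mice, by mouse (points), with the median of each mouse (bar); controls are blue and nulls orange. Right, the share of summed intensity taken by all 49 probe sets in each mouse, on an axis from 0: control replicate 2 stands at 2.18% and the other 5 mice between 2.67% and 2.84%.

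Of the labels, this mouse's sample title alone has another first letter than the remaining 5, whose second letters are not all alike. What the titles stand for is not explained. The 3′ over 5′ signal, a check of RNA quality, ranged from 1.12 to 1.20 for actin and from 0.749 to 0.826 for Gapdh over the 6 mice, and control replicate 2 was inside both ranges. The array also carries probe sets for 18S ribosomal RNA, the RNA core of the small subunit. Its brightest probe set, towards the 3′ end, stood at 612.9, 252.2 and 656.5 in the controls and at 340.2, 587.0 and 220.7 in the nulls. This signal was low in control replicate 2 and in both male nulls, and the groups overlapped. Its part in the results was not tested.

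Among the large subunit proteins, Rpl13a came nearest to the threshold. Rpl13a lies on the outside of the large subunit and is also known as a part of a complex that silences inflammatory messengers in myeloid cells. The controls were at 997.4, 799.7 and 815.1 and the nulls at 1264.8, 1413.8 and 1224.4. All 3 nulls lay above all 3 controls. The log2 change was 0.58 (SE 0.13, 95% interval 0.27 to 0.88), unadjusted p = 0.00246 and adjusted p = 0.065 in limma. It passed with the stricter filter on dim probe sets, which tests fewer of them (adjusted p = 0.0491), and in no other fit made.

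Rpl22, which binds RNA and is needed for the development of some T cells, was read by a pair of probe sets that disagreed. One gave 122.5, 145.1 and 187.4 in controls and 236.2, 235.6 and 304.9 in nulls, with no overlap. Its log2 change of 0.74 (SE 0.21) had an unadjusted p = 0.00778 and an adjusted p = 0.118 in limma. The slightly brighter one gave 298.6, 333.0 and 203.0 in controls and 247.3, 247.6 and 265.6 in nulls, at a log2 change of -0.10 (SE 0.20). Both are dim, so no direction can be given for Rpl22. These were the 2 members with an unadjusted p under 0.05, Rpl13a and the dimmer Rpl22 probe set.

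Rplp0, the base of the acidic stalk that recruits elongation factors to the large subunit, was at 16453.5, 13037.1 and 16672.7 in controls and at 18523.2, 16769.1 and 17169.2 in nulls. The nulls lay just above the controls, the closest pair being 16672.7 and 16769.1. The log2 change was 0.19 (SE 0.13, adjusted p = 0.490 in limma). Rpl8, which lies near the centre where peptide bonds form, had the next largest change of the large subunit after Rpl13a among the brightest probe sets of each gene, at 9453 ± 1474 in controls and 11548 ± 1019 in nulls (SD, n = 3). The groups overlapped, because control replicate 1 (10463.9) exceeded null replicate 3 (10397.1). Its log2 change was 0.30 (SE 0.14, adjusted p = 0.342 in limma).

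The other large subunit genes had changes smaller than that of Rpl8. Rpl19, at the foot of the subunit, had a log2 change of 0.22, Rpl10a one of 0.21 and Rpl7a one of 0.19. Rpl37a, a small zinc-binding protein, had 0.13. The adjusted p of these 4 was at least 0.5 in limma. A second Rpl10a probe set gave 0.03, and -0.13 without control replicate 2. Rpl41, the smallest protein of the ribosome, was at 23315.5, 18251.5 and 22942.4 in controls and at 23518.4, 22987.8 and 20551.3 in nulls. Its log2 change was 0.06, with an interval from -0.24 to 0.36, and it turned to -0.01 after quantile normalization and to -0.05 without control replicate 2. Rpl6 (0.06) and Rpl7 (0.02) were the flattest. Rpl7 was at 12325.1, 10237.7 and 11847.4 in controls and between 11488.2 and 11659.0 in nulls, a narrow band that lay inside the range of the controls. Rpl7l1, a paralogue of Rpl7, was dim, at 180.2 ± 26.5 in controls and 205.8 ± 39.5 in nulls (SD, n = 3).

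Of the small subunit proteins, Rps19 had the largest change with all 6 mice. Rps19 is needed to process the precursor of the small subunit's RNA, and its gene is the one most often mutated in Diamond-Blackfan anaemia. It was at 4765.5, 3249.8 and 5054.0 in controls and at 5597.9, 5627.6 and 5340.5 in nulls. The nulls lay above the controls without overlap, and control replicate 2 was far below the other 2 controls. Its log2 change was 0.37 (SE 0.17, interval -0.03 to 0.76, adjusted p = 0.324 in limma). Without control replicate 2 it was 0.17, below those of Rps29 (0.47), the brighter Rps4l probe set (0.21) and Rpsa (0.20).

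Rpsa, which is also known as a laminin receptor, had a log2 change of 0.27 (SE 0.12, adjusted p = 0.314 in limma). It was at 3161.0, 2743.3 and 3130.1 in controls and at 3925.7, 3234.4 and 3735.1 in nulls, again without overlap. Rps29, another small zinc-binding protein, had 0.35 with dim values, at 152.7 ± 25.9 in controls and 196.6 ± 9.85 in nulls (SD, n = 3). Its nulls also lay above its controls without overlap. A second Rps29 probe set, too dim to be tested, leaned the other way, at 59.1, 53.8 and 44.7 in controls and at 22.3, 46.9 and 39.8 in nulls. The brighter probe set of Rps4l, a paralogue of Rps4x, gave 0.30 and a dim one -0.16, and neither passed. Rps7, known for binding the p53 regulator Mdm2, had 0.23 with wide spreads, at 8694 ± 1837 in controls and 10127 ± 1680 in nulls (SD, n = 3).

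The remaining bright small subunit messengers differed by little. Rps3, at the entry of the messenger channel, had a log2 change of 0.15, as had Rps18, in the head of the subunit. For Rps28 a pair of tested probe sets gave 0.13 and 0.26, Rps24 gave 0.11, Rps4x 0.11, Rps10 0.09 and Rps3a1 0.09. Rps4x and Rps3a1 did not overlap between groups despite their small changes, since their spreads were narrow. Rps4x was at 12259.6, 10791.2 and 12149.2 in controls and at 12703.9, 12592.3 and 12630.2 in nulls. Without control replicate 2 the log2 change was -0.01 for Rps3, -0.03 for Rps18 and -0.09 for Rps10.

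Rps27, a zinc-binding protein of the small subunit, was the one tested member probe set whose null values all lay below the controls. It was at 812.9, 785.4 and 732.3 in controls and at 672.9, 689.1 and 706.4 in nulls. The log2 change was -0.17 (SE 0.11, interval -0.42 to 0.08, adjusted p = 0.478 in limma). Rps13, at 127.8 ± 59.5 in controls and 106.3 ± 21.9 in nulls (SD, n = 3), was too dim and variable to give a direction. In all, 8 of 31 member probe sets (25.8%) had nulls above controls without overlap and 1 (3.23%) the reverse. Over all probe sets tested the shares were 13.1% and 10.8%.

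**Figure D3:**
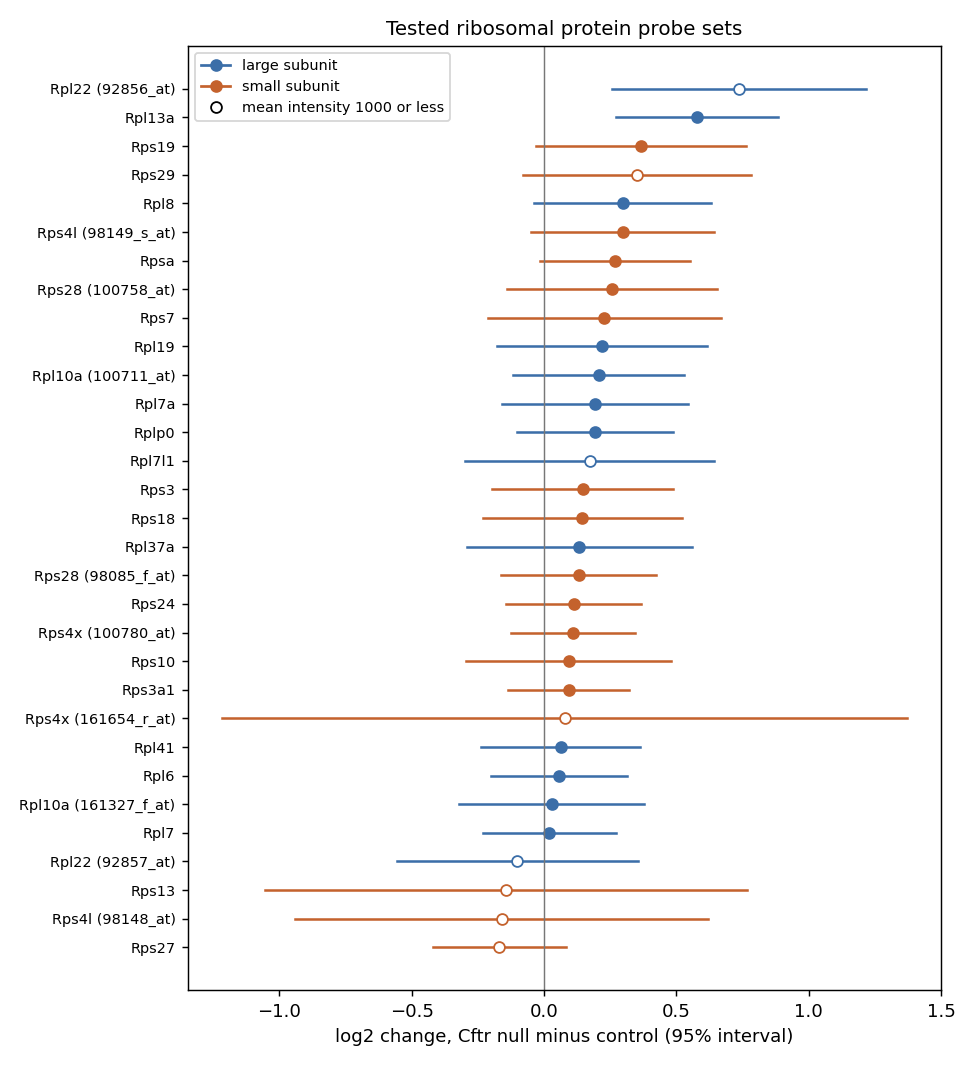
Log2 change (Cftr null minus control, points) with its 95% interval from limma (lines) for the 31 tested ribosomal protein probe sets, large subunit in blue and small subunit in orange; open points are probe sets with a mean intensity of 1000 or less. The intervals of 29 include 0, and those of Rpl13a and the dimmer Rpl22 probe set do not.

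The intervals limit how large a difference these arrays allow. In the 18 member probe sets with a mean above 6000, the log2 change lay between 0.02 and 0.30. The upper ends of their 95% intervals lay between 0.27 (Rpl7) and 0.67 (Rps7), or 1.21-fold and 1.59-fold higher in nulls, and the lowest lower end was 0.815-fold. A 2-fold difference in either direction was outside the interval of each of these 18. For dim members such as Rps13 (-1.06 to 0.77) and a dim Rps4x probe set (-1.22 to 1.37) it was not.

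The level of a member depended strongly on the probe set. Of the 49 probe sets, 18 did not pass the filter on dim values, with means from 7.33 to 102.4, though ribosomal proteins are made in all growing cells. For 9 genes no probe set was tested: Rpl32, Rpl35a, Rpl38, Rpl39, Rpl39l, Rps14, Rps15, Rps20 and Rps27l. A low level is known for Rpl39l, which is mainly a testis gene. Whether the others were low in this tissue or read poorly by their probe sets cannot be told apart here. Both a tested and an untested probe set existed for 6 genes. Rps28 had values of 13608.5 to 17722.4 on one probe set and of 60.2 to 118.6 on another made from the same sequence record. Rpl7 was at 10237.7 or more on one and at 40.4 or less on the other. Rpl19 had a mean of 102.4 on its dim probe set, with 56.0, 72.1 and 60.3 in controls and 84.6, 175.6 and 165.6 in nulls. The bright Rps24 probe set is annotated with the same sequence record as the bright Rpl7 one, and the other Rps24 probe set was dim (71.8 to 116.4), so the bright values may not be those of Rps24.

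Other genes that make or serve ribosomes were looked at for comparison. None of the genes measured for ribosome assembly, translation initiation, elongation and termination, or the mitochondrial ribosome passed the test. For ribosome biogenesis, the making of ribosomal RNA and its assembly with proteins in the nucleolus, 0 of 52 genes passed, 45 lay above 0 and the median log2 change was 0.23. The brightest were nucleolin, Ncl, at 2877 ± 363 in controls and 3397 ± 528 in nulls (SD, n = 3), and Eif6, which keeps the subunits apart until the large one is mature, at 2892 ± 250 and 3285 ± 257. Of 30 initiation factor genes 0 passed, with a median of 0.14. The poly(A)-binding protein Pabpc1 had a log2 change of 0.23 and the helicase Eif4a2 one of -0.38. Of 10 elongation, termination and nascent chain genes 0 passed, with a median of 0.17. Eef1a1, which brings aminoacyl-tRNA to the ribosome, had 0.07, and Tpt1 -0.06, both being known to carry the same oligopyrimidine tract. Of 58 mitochondrial ribosomal proteins 0 passed, with a median of 0.16, Mrpl18 having 0.17 and Mrpl52 0.14. At an unadjusted p under 0.05 there were 13 of 52, 3 of 30, 1 of 10 and 5 of 58 genes in these 4 lists, beside 17.3% of all probe sets. In the same order, 45, 25, 8 and 48 genes lay above 0, beside 54.3% of all probe sets tested. Without control replicate 2 the medians of the 4 lists were 0.19, 0.12, 0.11 and 0.11, beside 0.03 over all probe sets tested.

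The cytosolic aminoacyl-tRNA synthetases, which load amino acids onto transfer RNA, differed more. Of 19 measured, 2 rose and 0 fell, beside 1.13% and 1.87% of all probe sets, and 16 had an unadjusted p under 0.05, beside 17.3%. In 18 the log2 change was above 0, and its median was 0.51. Gars, for glycine, was at 762.2, 683.0 and 798.6 in controls and at 1158.0, 1131.0 and 1267.8 in nulls. The log2 change was 0.66 (SE 0.12), a rise at an adjusted p = 0.0290 in limma. Mars1, for methionine, was at 300.5, 253.1 and 358.8 in controls and at 583.3, 477.7 and 540.9 in nulls, and rose too, with a log2 change of 0.80 (SE 0.16) and an adjusted p = 0.0446 in limma. The groups did not overlap for either gene. Neither call was stable: Gars lost it when any 1 of the 6 mice was left out (adjusted p from 0.0584 to 0.107 in limma), and Mars1 when any was but control replicate 3 (0.0443 to 0.157). The median of the 19 was 0.46 without control replicate 2.

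Of 21 growth and ribosome stress regulators 0 passed, beside 1.13% of all probe sets called higher and 1.87% lower. The median log2 change was -0.02, with 10 genes above 0 and 11 below. At an unadjusted p under 0.05 in limma there were 3, beside 17.3% of all probe sets. Of these, Max was lower in nulls, and Akt1 (log2 change 0.51, adjusted p = 0.0717 in limma) and Eif4ebp1 (0.77, 0.163) were higher. The groups did not overlap in any of them. A pair of Cdkn1a probe sets gave -0.20 and 0.60. Max, the partner of Myc, was at 2705 ± 203 in controls and 1969 ± 503 in nulls (SD, n = 3, adjusted p = 0.229 in limma). Eif4ebp2, an mTOR target that restrains initiation, was at 1842 ± 193 and 1949 ± 63.8 on its brighter probe set, and at 705.0 ± 125.3 and 507.0 ± 78.9 on another. Their log2 changes of 0.09 and -0.46 had opposite signs, and neither passed (adjusted p = 0.752 and 0.235 in limma).

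**Figure D4:**
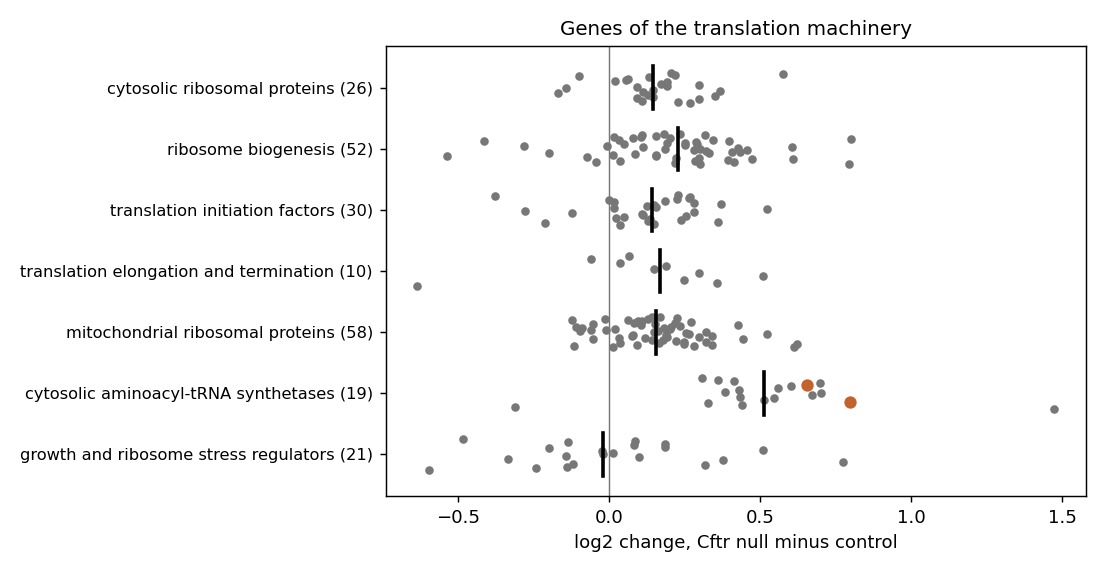
Log2 change (Cftr null minus control) of each gene (points) in 7 lists of the translation machinery, 1 probe set per gene, with the number of genes in brackets and the median of each list as a black bar; the 2 orange points are Gars and Mars1, the genes past the threshold. The ribosomal protein median is 0.15 and that of the aminoacyl-tRNA synthetases 0.51.

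The targeted gene and markers of cell types were read on the same arrays. Cftr fell by 1.47 on the log2 scale (adjusted p = 0.00421 in limma) from 801.6, 1017.5 and 1002.0 in the controls to 325.9, 295.6 and 368.5 in the nulls, as the labels give the groups. All 8 enterocyte markers on the array were measured, with a summed level of 108860 to 130230 in controls and 60390 to 98650 in nulls. Of the 8, 0 passed in limma and 4 had an unadjusted p under 0.05, beside 17.3% of all probe sets tested. All 8 lay below 0, while 54.3% of all probe sets tested lay above 0. Markers of dividing crypt cells summed to 10076 to 10242 in controls and 11559 to 13250 in nulls, and 2 of 15 rose, Cks1b and Plk1. Plk1 passed narrowly (adjusted p = 0.0455 in limma), on the brightest of its 3 tested probe sets. The brightest marker, Ccnb2, was at 1847 in controls and 2609 in nulls (means) and did not pass. Pcna (log2 change 0.03) and Mki67 (0.09) differed little, and of the 15 Rrm2 (-0.02) and Mcm2 (-0.12) lay below 0. Among 5 lymphocyte and plasma cell markers the antibody joining chain Jchain rose, and the higher sum in nulls (4063 to 4504 in controls, 6101 to 7022 in nulls) was that gene's. The other 4 did not pass, 3 of them lay below 0, and the median log2 change of the 5 was -0.22. Of 5 mast cell markers 3 rose, Mcpt1, Mcpt2 and Cpa3 (summed 663.5 to 880.8 in controls and 4456.6 to 12089 in nulls). The higher sum in nulls was mainly that of Mcpt1 and Mcpt2. Kit (log2 change -0.04) and Tpsb2 (-0.38) lay below 0. Among 7 smooth muscle markers Actg2 alone rose, and 6 lay above 0. Their sum was 14640 to 20544 in controls and 22395 to 26808 in nulls, much of the difference being that of Actg2. Over all probe sets tested, 1.13% were called higher and 1.87% lower. Goblet (0 of 5) and exocrine pancreas markers (0 of 4) did not pass, and 1 of 3 Paneth markers, Mptx1, rose. Control replicate 2 had the lowest sum for Paneth (12594), goblet (62433), smooth muscle, dividing crypt cell (10076) and mast cell markers (663.5) as well. It did not for enterocyte, lymphocyte and plasma cell, or exocrine pancreas markers. Its sum was also the lowest in each translation list above, the synthetases included, but not in the growth and ribosome stress regulators. Whether these differences in marker levels bear on the ribosomal protein values was not tested.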

How the data were processed

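Intensities per probe set were used as deposited by the authors, with 1 mouse per array. The scanning and scaling software is not stated per the labels, though 2%-trimmed means of 499.4 to 499.9 show prior scaling. Gene names come from the platform annotation. Tests ran on log2(intensity + 12), which understates differences of dim genes. To be tested, a probe set had to exceed 109.7 (40th percentile) on 3 or more of the 6 arrays. Null and control mice were compared by limma 3.58.1 in R 4.3.3 (lmFit, then eBayes with trend), two-sided, and p-values were adjusted by Benjamini and Hochberg's method over all 7601 probe sets, with a threshold of 0.05. The fit was also run on simulated data with noise drawn independently for each probe set. Those data hold no shift shared by a whole array, so they cannot speak to one. The number of arrays limits the precision.

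Members and gene lists were chosen with earlier results of these data known. The rule for named genes took members past the threshold, the 8 largest differences in each direction, the 6 brightest, those with discordant probe sets, stalk proteins, paralogues and Cftr, and in each other list those past the threshold or else the 2 brightest. Other members and some other genes of the lists are named as values, outside that rule. Alternatives changed the normalization (quantile, equal medians), the pseudocount (3 or 48), the filter (none, or the 60th percentile) and the model (sex as a term, only the males, eBayes with no trend, robust eBayes). Others left out each mouse, averaged the probe sets of a gene, or dropped the 15 members whose names mark possible cross-hybridization. Using only genes above 1000, and dropping the doubtful Rps24 probe set, were chosen after seeing the data.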

Additional observations from a re-analysis of the deposited data

How the results depend on the processing

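The median over ribosomal protein genes lay between 0.14 and 0.20 under the 14 alternatives that leave out no single mouse, and between 0.05 and 0.22 with 1 mouse left out; the large subunit median then lay between 0.0467 and 0.2612. Members called higher were 0 in each fit but that with the filter at the 60th percentile, where 1 was (Rpl13a), and members called lower were 0 in all. Over all probe sets, 50 rose and 85 fell in males only, 49 and 92 without the variance trend, and with 1 mouse left out 17 to 68 rose and 35 to 117 fell. Quantile normalization turned Rpl41 to -0.0061 and Rpl7 to -0.0133. With 1 mouse left out, some members changed sign, and the lowest and highest values were -0.0517 and 0.1249 for Rpl41, -0.0106 and 0.2368 for Rps3, -0.1323 and 0.1249 for the second Rpl10a probe set, -0.4603 and 0.4738 for the dim Rps4x one, -0.3029 and 0.0383 for the brighter Rpl22 one, -0.5742 and 0.0743 for Rps13, -0.0174 and 0.2932 for Rpl37a, -0.0061 and 0.1055 for Rpl6, -0.0594 and 0.0743 for Rpl7, -0.4659 and 0.0647 for the dim Rps4l one, -0.027 and 0.2341 for Rps18, and -0.0865 and 0.1936 for Rps10. The cause was not tested. Dim members such as Rps13 have wide intervals, and the signal over background was not analysed here. No paired analysis was possible because the labels number no replicates, and the numbers used here, given in the order of the samples, pair no mice.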

Other observations

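The 39 probe sets that carry a ribosomal protein symbol beside other symbols cannot be assigned to 1 gene and were left out of every count above. Of these, 34 were bright enough to be tested, and 0 passed in limma (lowest adjusted p = 0.18). Over all probe sets tested, 1.13% were called higher and 1.87% lower. In 6 of the 34 the unadjusted p was under 0.05, a share close to the 17.3% of all probe sets tested. The log2 change was above 0 in 30 of the 34, beside 54.3% of all. Its median was 0.19, beside 0.03 over all, and its range ran from -1.05 to 0.70. Their values without control replicate 2 were not examined.

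The other 18S ribosomal RNA probe sets were dimmer. The one in the middle of the molecule stood at 86.4, 17.1 and 120.5 in the controls and at 25.7, 92.3 and 11.6 in the nulls. That at the 5′ end stood at 170.0, 58.7 and 251.0 in the controls and at 46.9, 158.1 and 47.0 in the nulls.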
